A study of Mus musculus with 24 samples.

Results

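The genes described are those of the cytosolic ribosomal proteins, measured in 2 brain regions, striatum and cerebellum, of mice with an expanded or a normal huntingtin allele. They were chosen by name: a gene was a member if its symbol in the platform annotation had the form Rpl, Rps or Rplp with a number, and if its probe set paired with that symbol alone. A probe set is the group of short probes on the array that reads 1 transcript. Of 48 genes with such a name, 41 had a probe set with a mean of 4 or more in striatum or in cerebellum, out of 10766 genes measured, and the probe set with the highest mean over the 24 arrays stood for each gene. By name alone, 22 members are counted with the large subunit and 19 with the small subunit. The rule used no measured difference, though it was set with earlier results of these data known.

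Total RNA was hybridised to Affymetrix MG430 2.0 arrays, 6 per group in 4 groups: Q111 striatum, wild-type striatum, Q111 cerebellum and wild-type cerebellum. Q111 mice were homozygous for a knock-in huntingtin allele with an expanded CAG repeat (HdhQ111/HdhQ111), and wild-type mice carried 2 normal alleles (Hdh+/Hdh+, Q7/Q7). The labels give all groups the same age, as a range of 3 to 10 weeks, without the age of any 1 animal. They call the replicates biological but name no animals, sex or litter, and leave unsaid if a mouse gave both tissues. The p-values therefore rest on the spread of these samples alone, which may be partly technical. The allele sits at the gene's own locus and every cell carries it, and no normal copy remains in the Q111 groups.

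A cytosolic ribosome is built from a small subunit, which reads the messenger RNA, and a large subunit, which joins the amino acids, and each holds ribosomal RNA and many proteins, most of them in equal numbers of copies. The messenger RNAs of vertebrate ribosomal proteins mostly begin with a C followed by a run of C and T (a 5′ terminal oligopyrimidine tract), through which mTOR signalling and the protein LARP1 set their translation together. Ribosomal protein messages are among the abundant transcripts of every cell type, neurons included.

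The sequences around the annotated starts of the members that the results turn on show how far this shared design is visible. Each line gives 25 bases before the RefSeq start and 25 from it on, 5′ to 3′ on the gene's strand, in GRCm38.p6, with the longest run of C and T in capitals. The first 8 had the largest differences towards striatum among members past the threshold in wild type (adjusted p under 0.05), the next 3 were lower in striatum past the same threshold, and the last 2 had the lowest genotype p-values in striatum.
Rps2, chr17:24720038-24720087, plus strand: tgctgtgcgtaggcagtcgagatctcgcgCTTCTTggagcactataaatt
Rpl22, chr4:152325701-152325750, plus strand: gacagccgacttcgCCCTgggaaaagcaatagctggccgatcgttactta
Rpl41, chr10:128549144-128549193, minus strand: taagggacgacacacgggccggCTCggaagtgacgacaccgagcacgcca
Rps19, chr7:24884567-24884616, plus strand: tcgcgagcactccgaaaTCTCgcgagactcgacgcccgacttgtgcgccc
Rps26, chr10:128626482-128626531, minus strand: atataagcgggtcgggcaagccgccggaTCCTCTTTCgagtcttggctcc
Rplp2, chr7:141447626-141447675, plus strand: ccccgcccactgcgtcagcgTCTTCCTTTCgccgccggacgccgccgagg
Rps4x, chrX:102189367-102189416, minus strand: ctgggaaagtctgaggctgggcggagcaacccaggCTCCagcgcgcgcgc
Rps15, chr10:80292406-80292455, plus strand: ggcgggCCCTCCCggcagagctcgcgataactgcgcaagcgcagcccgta
Rps27l, chr9:66946061-66946110, plus strand: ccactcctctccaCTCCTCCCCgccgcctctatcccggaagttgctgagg
Rpl7l1, chr17:46782632-46782681, minus strand: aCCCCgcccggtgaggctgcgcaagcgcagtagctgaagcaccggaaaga
Rplp0, chr5:115559442-115559491, plus strand: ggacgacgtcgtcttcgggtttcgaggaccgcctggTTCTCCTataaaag
Rpl10a, chr17:28328446-28328495, plus strand: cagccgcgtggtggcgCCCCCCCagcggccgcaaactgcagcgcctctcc
Rps6, chr4:86857343-86857392, minus strand: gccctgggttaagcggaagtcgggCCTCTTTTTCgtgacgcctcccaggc

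A window was found for 36 of the 41 members. In 18 of these 36 the 50 bases held a run of 8 or more C and T, as they did in 5250 of 27025 genes with a window (19.4%), and the median longest run was 8 bases in members and 5 in all genes. In Rplp2 and Rps6 the run holds the annotated start itself, as it does in Rpl35, a large subunit protein, and Rpl7a, another protein of that subunit; in Rps2, Rpl22 and Rpl41 the longest run is short. The heptamer CCGGAAG, a core that ETS-family factors such as GABP recognise, lay on either strand in 19 of the 36 windows of 300 bases (52.8%), against 9.12% of all windows. The octamer AAGATGGC, the core bound by YY1, lay in 2 (5.56%), against 2.88%. The 2 motifs can overlap at AAG, and 0 of the 36 members held both. An annotated start can lie some bases from the start a cell uses, and these letters describe the windows only.

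Over all probe sets kept, correlations between arrays of a group were 0.983 to 0.993, those between tissues were 0.796 to 0.849, and no array pair held identical values. All values are log2 units of the deposited table. The tissue labels matched their marker genes: 7 of 7 striatal projection neuron markers were higher in striatum (median difference 6.42 in wild type), and 9 of 9 cerebellar markers were lower (median -9.99).

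Probe set values of the members lay near the top of the array's range. The highest means over 24 arrays were those of Rps29 (14.95), Rpl13a (13.94), Rps28 (13.67), Rpl4 (13.27) and Rps24 (13.24), and 34 members had a mean of 10 or more. The other 7 were read by dim probe sets, with means of 4.13 for Rps6, 6.86 for Rps25, 7.43 for Rpl39, 8.0 for Rpl7l1, 8.18 for Rpl27a, 9.22 for Rps27l and 9.59 for Rpl37. These values rank probe sets and not transcripts, because probes differ in how well they bind. Rps6 was the member closest inside the level limit, with a mean of 4.29 in its higher tissue, and Rps4l (3.90) and Rpl14 (3.76) were closest outside it. The others outside were Rpl12, Rpl39l, Rpl3l, Rps16 and Rps27, at 2.03 to 3.10. A further 110 probe sets named a ribosomal protein gene together with other symbols and are no members.

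Replicates of the same group lay close together. The median SD within groups was 0.09 for the members and 0.17 for all genes. It was 0.09 for the 34 brighter members, between 0.05 for Rps29 and 0.12, and 0.16 for the 7 dim ones, up to 0.32 for Rps6.

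The first question was whether the expanded huntingtin allele was accompanied by a change in the ribosomal protein messages. In striatum it was not detected: by limma's moderated test, 0 of the 41 members passed an adjusted p of 0.05 in Q111 against wild type, where 2.78% of all genes did. Over the other settings tried the count was 0 to 1, and 0 to 2 when 1 array was left out. The unadjusted p was under 0.05 for 5 members (12.2%), against 19.2% of all genes. The median difference of the members was -0.03, and that of all genes was also -0.03. Of the members 14 were higher and 27 lower in Q111, and of all genes 4543 were higher and 6223 lower. For 38 of 41 members the 95% interval of the difference stayed within 0.5 log2 units of 0, as for 8824 of 10766 genes.

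In cerebellum no member passed either. By limma the count was 0 of 41, against 0.446% of all genes, and 5 members (12.2%) had an unadjusted p under 0.05, against 14.4% of all genes. The median difference was -0.05 for the members and -0.05 for all genes. Of the members 8 were higher and 33 lower in Q111, and of all genes 3653 were higher and 7113 lower. For 39 members the 95% interval stayed within 0.5 of 0, as for 9010 of 10766 genes. With array medians set equal, the cerebellar medians became 0.05 for the members and 0.05 for all genes. That setting shifts every value of an array alike, so it cannot tell a shift of the family from one of scaling.

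**Figure D1:**
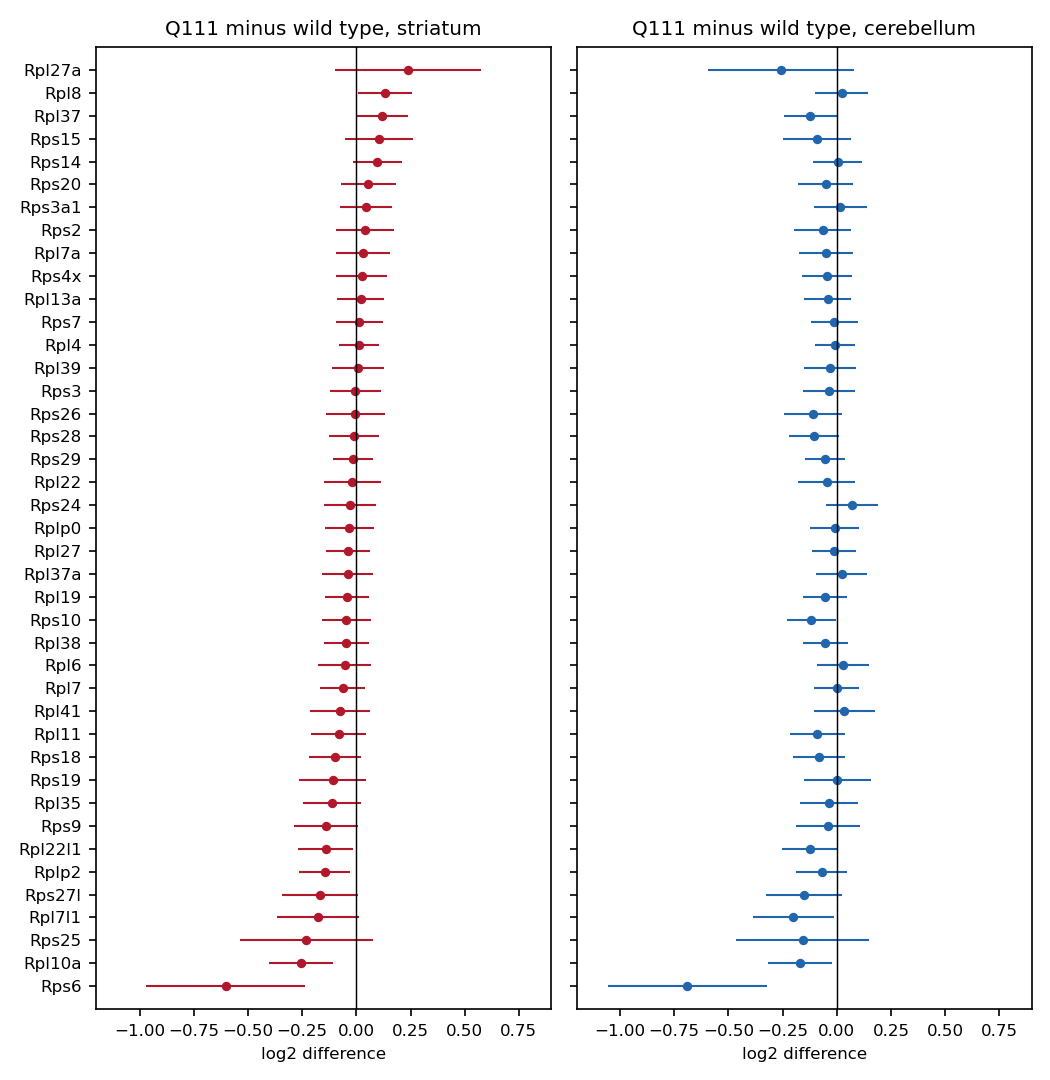
Difference between Q111 and wild type for each of the 41 members in striatum (left) and cerebellum (right), in log2 units on the horizontal axis. Points are limma estimates and lines 95% intervals (n = 6 arrays per group); members are ordered by the striatal value, and Rps6, at -0.60 and -0.69, lies farthest from 0 in both tissues.

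Rps6, the small subunit protein that S6 kinase phosphorylates downstream of mTOR, had the largest point estimates. In striatum its lowest, median and highest array values were 3.43, 4.06 and 4.55 in Q111, against 4.17, 4.55 and 4.98 in wild type. The 6 Q111 arrays lay below the wild-type mean, though the groups overlapped. The difference was -0.60 ± 0.18 (SE, adjusted p = 0.0643 by limma; two-sided exact permutation p = 0.0260). In cerebellum the values were 3.26, 3.68 and 3.84 in Q111, against 3.73, 4.41 and 4.59 in wild type. Again all 6 Q111 arrays lay below the wild-type mean and the groups overlapped, with a difference of -0.69 ± 0.18 (SE, adjusted p = 0.0781 by limma; exact permutation p = 0.00649). Neither passed the threshold. The Rps6 probe set is the dimmest of the members, with a mean of 4.13 against array medians of 3.38 to 3.51. Its group means were 4.59 in wild-type striatum and 4.32 in wild-type cerebellum, against 3.99 and 3.63 in Q111. Only the wild-type groups stood above the level limit of 4. That limit was set on the mean of a tissue over both genotypes. Rps6 was kept through striatum (4.29), where the wild-type values brought it past the limit, and its cerebellar mean lay just below. Both differences were therefore read close to that limit. When 1 array at a time was left out, the limma adjusted p in striatum passed the threshold without wild-type striatum array 5 (0.0475), without Q111 striatum array 5 (0.0365) and without wild-type cerebellum array 4 (0.0476). In cerebellum it passed without wild-type cerebellum array 4 (0.0403), the lowest array of its group.

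Rpl10a, a large subunit protein of the L1 stalk that is widely used as a tag for purifying ribosomes of chosen cells, was the single member whose striatal groups did not overlap (2.44% of members, and 2.43% of all genes). Its arrays read 11.98, 12.16 and 12.27 in Q111 striatum (lowest, median, highest), against 12.27, 12.38 and 12.59 in wild-type striatum. The difference was -0.26 ± 0.07 (SE, n = 6 each), a fold of 0.837, with an adjusted p of 0.0521 by limma and an exact permutation p of 0.00216, the smallest that 6 against 6 arrays can give. In cerebellum the values were 11.96, 12.05 and 12.21 in Q111, against 12.04, 12.24 and 12.38 in wild type. All 6 Q111 arrays were below the wild-type mean there too, with a difference of -0.17 ± 0.07 (SE, adjusted p = 0.283 by limma). Rpl10a stood on the border of the threshold in striatum, where its adjusted p by limma was 0.0317 to 0.281 over 14 other settings. Leaving out 1 array, it passed without wild-type striatum array 1 or 5, Q111 striatum array 4, wild-type cerebellum array 5 or Q111 cerebellum array 4 or 6 (adjusted p by limma 0.0432 to 0.0494).

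Other members at the ends of the genotype order differed by less, or with more spread. In striatum Rps25, a small subunit protein needed for initiation at some viral entry sites, read 6.16, 6.67 and 7.10 in Q111, against 6.45, 6.87 and 7.2 in wild type. The groups overlapped over most of their range, and the difference of -0.23 ± 0.15 (SE) had an adjusted p of 0.426 by limma. Rpl27a, a large subunit protein, read 7.74, 8.41 and 8.64 in Q111 striatum, against 7.69, 8.01 and 8.77 in wild-type striatum. Its difference was 0.24 ± 0.16 (SE) in striatum and -0.26 ± 0.16 (SE) in cerebellum (adjusted p = 0.458 and 0.498 by limma). Its striatal value rested on which arrays were used, with -0.23 over replicates 1 to 3 and 0.71 over replicates 4 to 6. Rpl8, a large subunit protein next to the peptidyl transferase centre, was above the wild-type mean in 6 of 6 Q111 striatal arrays, with a difference of 0.13 ± 0.06 (SE, adjusted p = 0.229 by limma). The other members with an unadjusted p under 0.05 in striatum were Rplp2, of the stalk of the large subunit, at -0.15 ± 0.06, and Rpl22l1, a paralog of Rpl22, at -0.14 ± 0.06 (SE, adjusted p = 0.159 and 0.211 by limma), each below the wild-type mean in 6 of 6 Q111 arrays.

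In cerebellum the other members named for a low value were Rpl27a and Rpl7l1, a paralog of Rpl7 found in the nucleolus. Rpl7l1 read 7.91, 8.04 and 8.34 in Q111 cerebellum, against 8.03, 8.33 and 8.44 in wild-type cerebellum, a difference of -0.20 ± 0.09 (SE, adjusted p = 0.317 by limma). At the upper end stood Rps24, a small subunit protein mutated in Diamond-Blackfan anaemia, at 0.07 ± 0.06 (SE), Rpl41, the smallest ribosomal protein, at 0.04 ± 0.07 (SE), and Rpl6, of the large subunit, at 0.03 ± 0.06 (SE). Their adjusted p values by limma were 0.623, 0.869 and 0.882. The 95% intervals of these 3 spanned 0, so no rise was shown.

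Many members had more than 1 probe set, which gave a second reading. The 19 members with further kept probe sets had 42 of them, of which 0 passed in striatum and 1 in cerebellum by limma. That probe set reads Rps24 at a mean of only 3.99, and was 0.28 ± 0.06 higher in Q111 cerebellum (SE, adjusted p = 0.0433 by limma), while the brightest Rps24 probe set gave 0.07. The 98 kept probe sets that name a ribosomal protein gene among several symbols had a median of -0.02 in both tissues, and 0 passed in striatum and 1, lower in Q111, in cerebellum.

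The question of a genotype effect that differs between the tissues was tested with the interaction. By limma 0 of 41 members passed, against 0.0836% of all genes, and 2 members (4.88%) had an unadjusted p under 0.05, against 10.2% of all genes. These were Rpl37, a large subunit protein, and Rpl27a. Rpl37 read 9.67, 9.80 and 9.88 in Q111 striatum, against 9.57, 9.65 and 9.85 in wild-type striatum. In cerebellum it read 9.32, 9.36 and 9.59 in Q111, against 9.40, 9.52 and 9.57 in wild type. Its genotype difference was 0.12 ± 0.06 in striatum and -0.12 ± 0.06 in cerebellum (SE), a difference of differences of 0.24 ± 0.08 (SE, adjusted p = 0.275 by limma). That of Rpl27a was 0.50 ± 0.23 (SE, adjusted p = 0.479 by limma).

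Averaged over the 41 members, the arrays showed how little the groups of 1 tissue differed. The mean of the members ran from 11.74 to 11.87 in Q111 striatum (median 11.78) and from 11.74 to 11.94 in wild-type striatum (median 11.84). In cerebellum it ran from 11.57 to 11.67 in Q111 (median 11.63) and from 11.61 to 11.76 in wild type (median 11.69). The genotypes overlapped in both tissues, whereas striatum and cerebellum did not overlap in Q111 and overlapped at the ends of their ranges in wild type. Some cell type markers moved with genotype in striatum. Of 7 striatal projection neuron markers 0 passed and 2 were higher, with a median of -0.09. Of the cortical neuron markers 8 of 8 were higher (2 passed), with mean levels of 7.65 to 8.65 in Q111 and 7.38 to 8.22 in wild type. Of 9 microglial markers 3 passed upward and 1 downward (means 7.86 to 8.18 in Q111, 7.62 to 7.95 in wild type). The 3 were the complement genes C1qa, C1qb and C1qc, while the list's median was 0.01, with 5 of 9 higher. Of 5 endothelial markers 1 passed downward (means 7.72 to 8.0 in Q111, 7.95 to 8.27 in wild type). Of 8 astrocyte markers 4 were higher, and 1, Slc7a10, passed downward at -0.43 (adjusted p = 0.0268 by limma; means 9.85 to 10.11 in Q111, 9.79 to 10.16 in wild type). Of 9 oligodendrocyte markers 8 had a lower mean, with a median of -0.201 and adjusted p values of 0.0621 or more by limma (means 10.78 to 11.44 in Q111, 11.23 to 11.48 in wild type). Their part in the members' values was not tested. In bulk tissue, fewer cells of a type and less RNA per cell cannot be told apart.

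**Figure D2:**
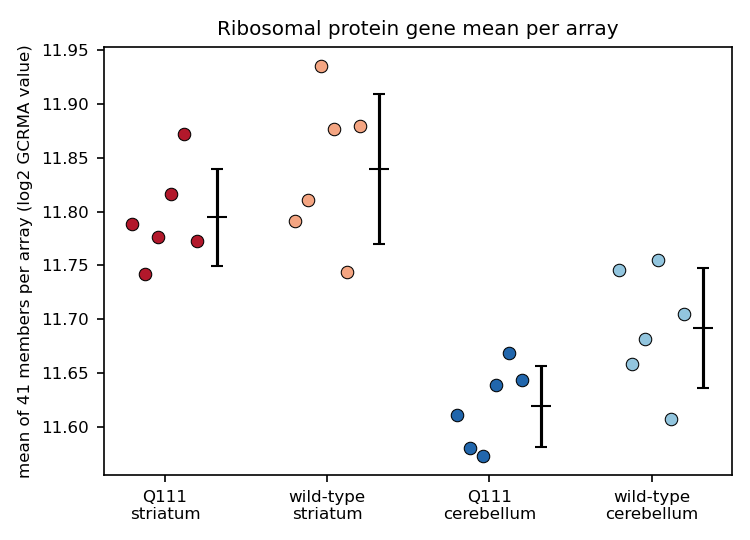
Mean log2 value of the 41 members on each array (vertical axis), by group; points are arrays in order of replicate number, and the bar at the right of each group is the mean with its SD (n = 6). Q111 and wild-type arrays overlap in each tissue, at 11.74 to 11.94 over both striatal groups and 11.57 to 11.76 over both cerebellar groups.

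The second comparison the design allows is between the tissues, within each genotype. Here members did differ, most of them towards striatum, and with a smaller median absolute difference than over all genes. In Q111 mice 18 members were higher in striatum and 4 lower (limma, adjusted p under 0.05), where 32.9% of all genes were higher and 40.7% lower. In wild-type mice 19 were higher and 4 lower, where 32.1% of all genes were higher and 41.6% lower. Together 53.7% of members passed in Q111 and 56.1% in wild type, below the 73.6% and 73.8% of all genes. The genotypes shared 19 of these calls (86.4% of the 22 Q111 calls and 82.6% of the 23 wild-type calls), all 19 with the same sign. Shared calls were not counted over all genes, so this agreement is not shown to be particular to the members.

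The sizes were modest, beside all genes that were not matched to the members for level. In wild-type striatum the mean level was 11.84 for members and 7.62 for all genes. The part of level in the sizes was not tested. In wild type the median absolute difference between the tissues was 0.171 for members and 0.466 for all genes, and 4 members (9.76%) differed by 1.5-fold or more, against 42.2% of all genes. The median signed difference was 0.132 for members and -0.07 for all genes in Q111, and 0.115 for members and -0.08 for all genes in wild type. In Q111 the 6 striatal and 6 cerebellar arrays did not overlap for 16 members (39.0%), against 53.9% of all genes, and in wild type for 13 (31.7%), against 55.2%.

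**Figure D3:**
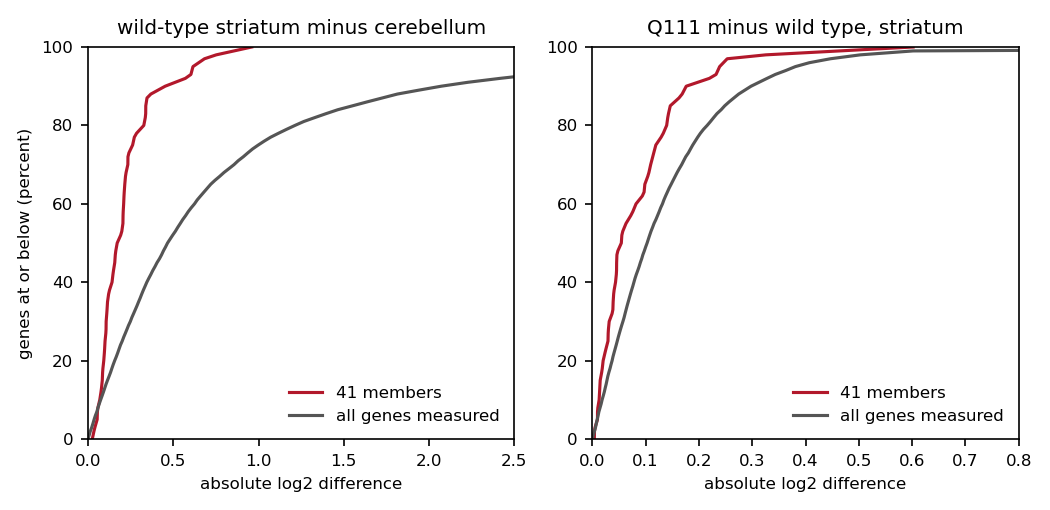
Share of genes (vertical axis, percent) whose absolute log2 difference is at or below the value on the horizontal axis, for the 41 members and for all 10766 genes measured. Left, wild-type striatum minus wild-type cerebellum, with medians of 0.171 and 0.466; right, Q111 minus wild type in striatum, with medians of 0.05 and 0.10.

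Among the 19 small subunit proteins, 11 passed as higher in wild-type striatum and 1 as lower (limma, adjusted p under 0.05), where 32.1% of all genes passed as higher and 41.6% as lower. Counted without the test, 16 were higher and 3 lower, with a median difference of 0.206. Of all genes 4810 were higher and 5956 lower. Rps2, which lines the channel where messenger RNA enters, differed most of all members, as read by its only kept probe set. The name of that probe set ends in _x_at, as it does for 16 members in all, Rpl41 among them. Whether the probes of such a set also bind other transcripts was not tested, so the value may not be that of Rps2 alone. No Rps2 probe set ending in _at or _a_at was kept, so the value had no second reading. In Q111 Rps2 read 12.21, 12.45 and 12.55 in striatum (lowest, median, highest), against 11.24, 11.31 and 11.43 in cerebellum. In wild type it read 12.22, 12.37 and 12.44 in striatum, against 11.26, 11.39 and 11.50 in cerebellum. Every striatal array lay above every cerebellar one, by about the same distance in both genotypes. The difference was 1.07 ± 0.06 in Q111 (SE, 2.09-fold, adjusted p = 2.99e-13 by limma) and 0.96 ± 0.06 in wild type (SE, 1.95-fold, adjusted p = 2.16e-12 by limma).

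Rps19, the protein most often mutated in Diamond-Blackfan anaemia, and Rps26, which lies at the channel where messenger RNA leaves, followed. Rps19 read 11.81, 11.96 and 12.16 in wild-type striatum, against 11.24, 11.33 and 11.62 in wild-type cerebellum. Rps26 read 11.76, 11.99 and 12.24 in wild-type striatum, against 11.47, 11.55 and 11.63 in wild-type cerebellum. In neither gene did the tissues overlap in Q111 or in wild type. Rps19 differed by 0.49 ± 0.07 in Q111 and 0.60 ± 0.07 in wild type (SE), and Rps26 by 0.56 ± 0.07 in Q111 and 0.45 ± 0.07 in wild type (SE). The limma adjusted p values lay between 4.49e-08 and 3e-06.

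Rps4x, the small subunit protein encoded on the X chromosome, and Rps15, which is needed to export the new small subunit from the nucleus, showed smaller differences. Rps4x read 12.31, 12.43 and 12.58 in wild-type striatum, against 12.01, 12.11 and 12.14 in wild-type cerebellum, without overlap. Rps15 read 12.42, 12.50 and 12.77 in wild-type striatum, against 12.10, 12.26 and 12.44 in wild-type cerebellum, with ranges that touched at their ends. Rps4x differed by 0.40 ± 0.06 in Q111 and 0.33 ± 0.06 in wild type, and Rps15 by 0.46 ± 0.08 in Q111 and 0.26 ± 0.08 in wild type (SE; adjusted p by limma 1.58e-05 and 0.0034 in wild type). Rps7, Rps18, Rps20, Rps28 and Rps29, all small subunit proteins, were higher in striatum in both genotypes too, by 0.106 to 0.234 in wild type.

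The single small subunit member that passed as lower in wild-type striatum was Rps27l, a paralog of Rps27 and a p53 target. It read 9.0, 9.10 and 9.28 in wild-type striatum, against 9.28, 9.48 and 9.65 in wild-type cerebellum, so that the highest striatal array stood just below the lowest cerebellar one. The difference was -0.36 ± 0.08 in Q111 and -0.35 ± 0.08 in wild type (SE, adjusted p = 0.000556 and 0.000817 by limma). Both further Rps27l probe sets gave the same direction, at -0.53 and -0.29 in wild type.

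By limma, 8 of the 22 members counted with the large subunit passed as higher in wild-type striatum and 3 as lower. The shares of all genes were the same 32.1% and 41.6%. Counted without the test, 17 were higher and 5 lower, with a median of 0.109, where 4810 of all genes were higher and 5956 lower. Whether the subunits differ was not tested. Rpl22, an RNA-binding protein that T cell development in mice depends on, differed most. It read 11.72, 11.80 and 12.03 in wild-type striatum, against 11.02, 11.11 and 11.25 in wild-type cerebellum, without overlap. The difference was 0.73 ± 0.06 in Q111 and 0.70 ± 0.06 in wild type (SE, adjusted p = 2.52e-10 and 5.08e-10 by limma). Its paralog Rpl22l1, whose message Rpl22 is known to repress in mice, was also higher in striatum, by 0.15 ± 0.06 in Q111 and 0.17 ± 0.06 in wild type (SE, adjusted p = 0.0312 and 0.0169 by limma). The 3 probe sets of Rpl22 did not read alike: another, with a mean of 10.44, gave 0.49 in wild type, and the dimmest, with a mean of 8.09, gave -0.67, both past the threshold.

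Rpl41 read 13.05, 13.27 and 13.36 in wild-type striatum, against 12.42, 12.62 and 12.79 in wild-type cerebellum. The tissues did not overlap in either genotype, and the difference was 0.51 ± 0.07 in Q111 and 0.62 ± 0.07 in wild type (SE, adjusted p = 3.91e-07 and 1.56e-08 by limma). Of its 3 further probe sets, those with means of 11.60 and 6.63 also gave higher values in wild-type striatum (0.69 and 0.23), and 1 with a mean of 4.75 gave -0.50. Over all members, 18 further probe sets passed together with the gene's first one in wild type. Of these 15 had the same sign, and the 3 of opposite sign, of Rpl22, Rpl41 and Rps20, had means under 10.

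**Figure D4:**
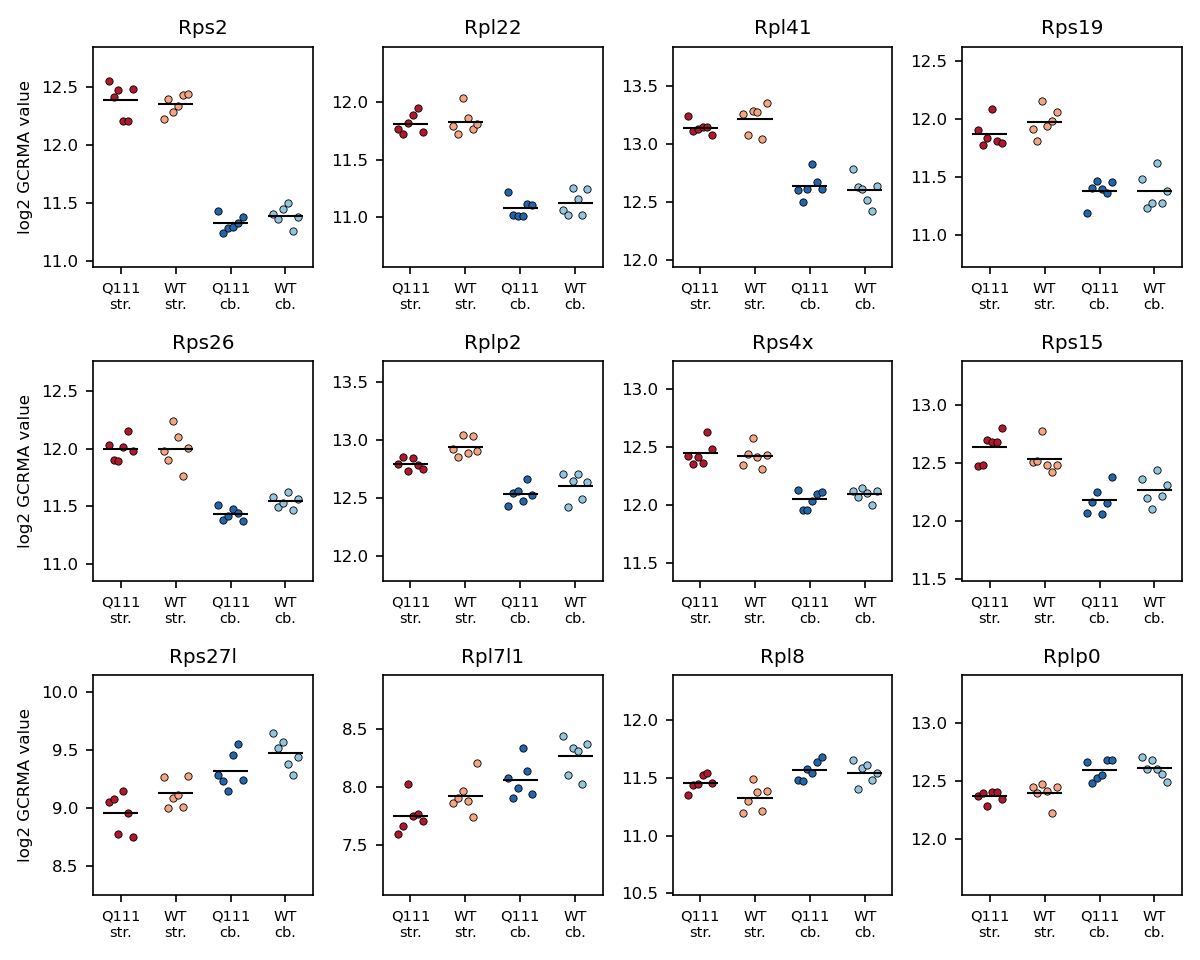
Log2 value of each array (vertical axis, 1.9 units in every panel) for the 12 members named for their tissue difference, in Q111 and wild-type (WT) striatum (str.) and Q111 and wild-type cerebellum (cb.). Points are arrays and lines group means (n = 6); the upper 8 genes are higher in striatum, from Rps2 (0.96 in wild type) to Rps15 (0.26), and the last 4 are lower, from Rps27l (-0.35) to Rplp0 (-0.21).

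The stalk that recruits elongation factors to the large subunit is built on Rplp0, to which dimers of Rplp1 and Rplp2 bind, and its measured members differed between the tissues in opposite directions. Rplp2 read 12.85, 12.92 and 13.04 in wild-type striatum, against 12.42, 12.64 and 12.71 in wild-type cerebellum. Rplp0 read 12.22, 12.43 and 12.47 in wild-type striatum, against 12.49, 12.60 and 12.71 in wild-type cerebellum. Neither pair overlapped. Rplp2 was higher in striatum by 0.26 ± 0.06 in Q111 and 0.34 ± 0.06 in wild type, and Rplp0 lower, at -0.23 ± 0.05 in Q111 and -0.21 ± 0.05 in wild type (SE; adjusted p by limma 1.3e-05 and 0.00155 in wild type).

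The other members counted with the large subunit that passed as lower in wild-type striatum were Rpl7l1 and Rpl8. Rpl7l1 read 7.74, 7.89 and 8.21 in wild-type striatum, against 8.03, 8.33 and 8.44 in wild-type cerebellum, and Rpl8 read 11.19, 11.34 and 11.49 in wild-type striatum, against 11.41, 11.56 and 11.65 in wild-type cerebellum. Both pairs overlapped in part. Rpl7l1 was lower by a difference of -0.31 ± 0.09 in Q111 and -0.34 ± 0.09 in wild type (SE, adjusted p = 0.00356 and 0.00188 by limma). Rpl8 differed by -0.11 ± 0.06 in Q111 and -0.22 ± 0.06 in wild type (SE, adjusted p = 0.113 and 0.00246 by limma). Rpl7, the partner of Rpl7l1, passed in Q111 alone, at -0.15 ± 0.05, against -0.09 ± 0.05 in wild type (SE, adjusted p = 0.00907 and 0.105 by limma). Rpl39, whose testis-enriched paralog Rpl39l was below the level limit, did not pass in either genotype (0.06 in Q111 and 0.03 in wild type).

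Calls made in 1 genotype alone are not shown to differ between genotypes, since 0 members passed the interaction. In Q111 alone Rpl7, Rpl13a and Rps14 passed, and in wild type alone Rpl6, Rpl8, Rpl27 and Rps9 did. For 38 of the 41 members the tissue difference had the same sign in both genotypes, a count that was not made over all genes.

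**Figure D5:**
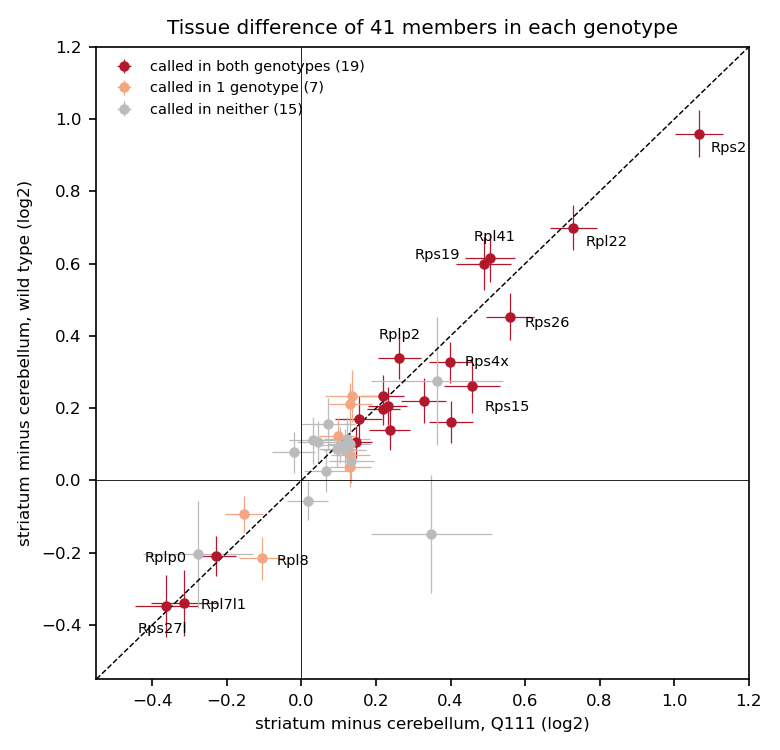
Difference between striatum and cerebellum in log2 units for each of the 41 members, in Q111 (horizontal axis) and in wild type (vertical axis), with standard errors; the dashed line marks equal differences. The 19 members called in both genotypes have the same sign in both, from Rps2 at 1.07 in Q111 and 0.96 in wild type to Rps27l at -0.36 in Q111 and -0.35 in wild type.

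Markers of glial cells moved with this comparison. All 9 oligodendrocyte markers were higher in wild-type striatum (mean levels 11.23 to 11.48, against 9.83 to 10.19 in cerebellum), as were all 9 microglial markers (7.62 to 7.95, against 5.55 to 5.96), with all of them past the threshold. Of 8 astrocyte markers 7 were lower and 6 of these passed (means 9.79 to 10.16, against 10.56 to 10.93), while Slc1a2, a glutamate transporter, was 1.72 higher (adjusted p = 3.22e-13 by limma). Their part in the members' tissue differences was not tested. Probe sets that name a ribosomal protein gene among several symbols also leaned towards striatum, with 53 of 98 past the threshold as higher in wild-type striatum and 7 as lower, and a median of 0.165.

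Genes that work with the ribosome were read from 6 lists of their own, of elongation factors, initiation factors, other messages with a pyrimidine tract, ribosome assembly factors, RNA polymerase I and its factors, and regulators of ribosomal protein translation. By genotype 1 of the 86 measured genes passed in striatum and 0 in cerebellum by limma, where 2.78% and 0.446% of all genes passed. The striatal one was Polr1c, a subunit shared by RNA polymerases I and III, which averaged 8.33 ± 0.40 in Q111 striatum and 7.44 ± 0.44 in wild-type striatum (SD, n = 6 each), a difference of 0.89 ± 0.24 (SE, adjusted p = 0.0448 by limma). In cerebellum it averaged 8.93 ± 0.27 in Q111 and 8.21 ± 0.60 in wild type (SD), a difference of 0.72 ± 0.24 (SE) that did not pass (adjusted p = 0.178 by limma). Cd3eap, a further subunit of RNA polymerase I, stood at -0.31 ± 0.09 in striatum (SE, adjusted p = 0.0632 by limma). Fau, which encodes the small subunit protein S30 fused to a ubiquitin-like domain and whose name lies outside the membership rule, stood at -0.22 ± 0.08 in striatum (SE, adjusted p = 0.114 by limma).

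Between the tissues, 25 of the 86 genes passed as higher in wild-type striatum and 35 as lower by limma, where 32.1% of all genes passed as higher and 41.6% as lower. Of 25 initiation factors 5 passed as higher and 13 as lower, with a median of -0.147, and of 5 elongation factors 2 passed as higher and 3 as lower. Eef1a1, which delivers aminoacyl-tRNA to the ribosome, was 0.56 ± 0.05 higher in wild-type striatum (SE, adjusted p = 3.6e-10 by limma), and Eef1a2, its paralog of neurons and muscle, was lower, at -0.38 ± 0.08 (SE, adjusted p = 0.000202 by limma). Of 20 ribosome assembly factors 9 passed as higher and 3 as lower. Nhp2, a protein of box H/ACA particles, was 1.45 higher and Pes1, needed for large subunit assembly, stood at -0.82 (adjusted p = 4.44e-15 and 4.91e-06 by limma). Rpsa, a small subunit protein also known as the laminin receptor and without a number in its name, was 0.72 higher in wild-type striatum (adjusted p = 1.25e-08 by limma).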

How the data were processed

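Total RNA from 24 tissue samples was hybridised to 1-colour Affymetrix MG430 2.0 arrays. The values deposited by the authors are from GCRMA, per the submitters' processing notes (release not given in the sources used here). This method removes background according to the bases of each probe, brings all arrays to a common distribution and reduces each probe set to 1 value. The log base is not stated, and the deposited values, from -0.77 to 16.33, were read as log2.

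Of 45037 probe sets other than 64 controls, 20738 had a mean of at least 4 in a tissue. A linear model of 4 group means over 24 arrays was fitted to these with limma 3.58.1 in R 4.3.3, and p-values were adjusted over all of them (Benjamini-Hochberg, threshold 0.05). The fit was tested on simulated data. Permutation tests used all 924 splits of 12 arrays into 6 and 6, and their p-values are not adjusted for the number of members. The members, gene lists and tests were chosen with earlier results of these data known. Named were the members past the threshold in a genotype comparison, up to 8 of the largest tissue differences each way among members past the threshold in wild type (8 higher and 4 lower), the 3 largest genotype differences each way, the 5 highest and 5 lowest members by mean, paralogs and stalk proteins, and from each list up to 3 genes that passed, or otherwise 2, of which a selection is printed. Sequences are from RefSeq, build GRCm38.p6, and the first window listed was taken for a gene with several. The number of arrays limits the precision. Alternatives covered scaling, filter, variance prior, array weights, replicate numbers, choice of probe set and leaving out each array.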

Additional observations from a re-analysis of the deposited data

Results flagged for a closer look

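In each group of 6 arrays, the distance of the most extreme array from its nearest neighbour was set against the whole range of the group, by Dixon's 95% limit for 6 arrays. Chance passes this limit in about 1 of 20 groups, and here 6 of 164 groups of member and condition did (3.66%). In Q111 striatum, array 1 of Rps18 was high at 12.63, with its neighbour at 12.45 (ratio 0.74). In wild-type striatum, array 5 of Rplp0 was low at 12.22, with its neighbour at 12.40 (ratio 0.717), and array 3 of Rps15 was high at 12.77, with its neighbour at 12.51 (ratio 0.731). In Q111 cerebellum, array 5 of Rpl37 was high at 9.59, with its neighbour at 9.37 (ratio 0.808), and array 4 of Rpl7a was low at 12.13, with its neighbour at 12.25 (ratio 0.661). In wild-type cerebellum, array 4 of Rps6 was low at 3.73, with its neighbour at 4.27 (ratio 0.63).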

How the results depend on the processing

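The results were redone with 14 alternative settings and 24 fits that each left out 1 array. Of 187 counts of members, 170 equalled the main count or lay within 1.5-fold of it. Of 187 medians, 186 moved by less than 0.0535, the pooled SD of the member mean between arrays of a group. The striatal genotype count became 1 at a level limit of 6, with a trended variance prior and with the mean of a gene's probe sets, each time through Rpl10a (limma adjusted p 0.0437, 0.0317 and 0.0479), and 1 over replicates 4 to 6 alone, through Rpl27a (0.71, limma adjusted p 0.0448). Leaving out 1 array gave 0 to 2 members in striatum, 0 to 1 in cerebellum, 19 to 25 between tissues in Q111 and 19 to 27 in wild type. The count was 2 without wild-type striatum array 5. The cerebellar genotype count was 1 with array weights and 1 without wild-type cerebellum array 4, both through Rps6. Median centring moved the cerebellar median to 0.0494. Over replicates 1 to 3 alone the tissue count was 13 in Q111 and 12 in wild type, and over replicates 4 to 6 alone it was 9 in wild type; these fits hold fewer arrays.

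Among single members, signs turned in 10 fits. Rps25 in striatum became 0.021 over replicates 4 to 6 alone, and Rpl27a became -0.232 over replicates 1 to 3 alone. With probe sets ending in _at or _a_at, Rps24 in cerebellum became -0.167 and Rpl41 in cerebellum -0.271. The Rpl41 tissue difference became -0.449 in Q111 and -0.501 in wild type. In this setting a probe set of another type and of lower mean stood for the gene (4.95 for Rps24, 4.75 for Rpl41). Rpl41 in cerebellum also became -0.107 over replicates 1 to 3 alone, -0.00569 with the mean of its probe sets, and -0.00273 to 0.0726 leaving out 1 array (-0.00109 without wild-type cerebellum array 5). The cause of these turns was not tested.

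Within a tissue, replicate numbers showed no pairing of the samples: the correlations of same-numbered samples were -0.423 to 0.119, and none of the 12 correlated best with its own number. These correlations do not show whether a mouse gave both tissues. A replicate block within each tissue gave 0 members in both genotype comparisons and the interaction, 18 between tissues in Q111 and 20 in wild type. The means of replicates 1 to 3 and 4 to 6 lay unusually close (SD over probe sets 0.0534 in striatum and 0.0512 in cerebellum, against at least 0.105 and 0.0974 for other equal splits), and with this number set in the model the counts were 0, 0, 0, 22 and 23. Limiting the members to a mean of 10 or more, chosen after seeing the data, gave 0 members by genotype, and 19 of 34 between tissues in Q111 and 20 in wild type. Dim probe sets limit what is known of 7 members.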
